A study of Mus musculus with 4 samples.

Results

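The genes described here are 9 transcripts widely used to mark microglia, namely Tmem119, Siglech, Olfml3, Gpr34, Selplg, Sparc, Slc2a5, Crybb1 and Cst3. They were taken by symbol from a mouse count table of 26051 features, and they are the microglia-enriched genes that lie outside the purinergic receptors, the chemokine receptors and the lineage factors. All 9 were in the table, and all 9 passed the filter on low counts that left 15840 genes for testing. The libraries were made from poly(A) RNA of microglia isolated at embryonic day 14. The design text states that Hat1, a histone acetyltransferase gene, was conditionally removed with Cre and loxP. There were 2 libraries titled ko (numbers 1 and 3) and 2 titled ff (numbers 2 and 5), and ff served as the comparison group. The labels do not say what ff stands for, which promoter drives Cre, which exons are flanked by loxP, or whether a library came from 1 embryo or from several. Age and tissue label were the same in both groups, and p-values speak only of the spread among the 4 libraries, which in the ff pair may be technical. The ko libraries differed in transcripts of the sex chromosomes, given below, and so were not made from the same RNA. Where values of single libraries are given, ff 2 comes before ff 5 and ko 1 before ko 3.

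Microglia are macrophages that settle in the brain during embryonic life, and signals of the tissue, TGF-beta among them, shape which genes they express. Several genes of this set are used to tell microglia from other macrophages. The set is not made of surface proteins alone. Tmem119, Siglech, Gpr34, Selplg and Slc2a5 encode membrane proteins, whereas Olfml3, Sparc and Cst3 encode secreted ones, and Crybb1 belongs to the crystallins, structural proteins of the eye lens. Sparc and Cst3 are also made by many other cell types, and Selplg by most white blood cells.

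The promoter table of RefSeq (build GRCm38.p6) held 6 of the 9 genes, and Tmem119, Gpr34 and Selplg were not among them. Each entry runs from 250 bases before the start site to 50 after it. Both strands were searched for GAGGAA, a core letter string of PU.1 sites, for GAAANNGAA, a pair of interferon-response half-sites, for GTCTG, a SMAD string, for TAAAAATA, a MEF2 core, and for TATAAA, the TATA box. No matches overlapped one another. The 2 promoters below are shown because a PU.1 string or a TATA box lay within 30 bases of the start site. Capitals mark all matches. Siglech lies at chr7:55767934-55768233 on the plus strand and Crybb1 at chr5:112255570-112255869 on the plus strand, both in GRCm38.p6.
Siglech: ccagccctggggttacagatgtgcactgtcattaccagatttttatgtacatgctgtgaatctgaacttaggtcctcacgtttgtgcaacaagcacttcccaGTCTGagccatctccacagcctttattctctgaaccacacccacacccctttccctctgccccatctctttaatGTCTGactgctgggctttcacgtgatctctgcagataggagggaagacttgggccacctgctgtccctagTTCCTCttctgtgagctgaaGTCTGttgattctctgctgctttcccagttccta
Crybb1: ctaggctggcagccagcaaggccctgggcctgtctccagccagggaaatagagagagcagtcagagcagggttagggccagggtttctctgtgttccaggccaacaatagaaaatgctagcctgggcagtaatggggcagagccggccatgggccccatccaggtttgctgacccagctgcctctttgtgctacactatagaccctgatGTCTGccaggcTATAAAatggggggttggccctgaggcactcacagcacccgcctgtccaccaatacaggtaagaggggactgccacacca
In Siglech the reverse of the PU.1 string began 4 bases before the start site, and the SMAD string occurred 3 times. In Crybb1 the TATA box began 30 bases before the start site, with 1 SMAD string upstream of it. Among all 6 promoters, 2 held the PU.1 string, 5 the SMAD string and 1 the TATA box, and 0 held the interferon or MEF2 strings. Over 32851 promoters of the table these strings were found in 28.3% (PU.1), 49.6% (SMAD), 13.6% (TATA), 8.56% (interferon) and 2.72% (MEF2). These are letter matches and were not tied to any count.

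Total counts ran from 14814846 to 18990917 per library, and TMM factors, which correct for differences in composition, lay between 0.991 and 1.01. Levels are given as CPM, counts scaled to the corrected library totals. Hat1 itself had 44.3 and 71.4 CPM in the ff pair and 39.2 and 36.6 CPM in the ko pair, and the edgeR test did not call it (log2 fold change -0.61 ± 0.23 SE, adjusted p = 0.298). It passed without ff library 2 (-0.91, adjusted p = 0.00286) and without ko library 1 (-0.67, 0.000114), and did not pass without ff library 5 (-0.25, 0.534) or without ko library 3 (-0.57, 0.612). Ko library 1 held transcripts of the Y chromosome, such as 3188 counts of Ddx3y, of which the other libraries had 0, and it had 3 counts of Xist against 2847 to 3986 in the others. Sex therefore differed between the groups through 1 library, and values without it are given for each of the 9 genes.

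All 9 genes were measured well, with between 160 and 8463 counts in a library. Counts cannot be compared between genes of different length, so levels were divided by the length of the principal transcript in GENCODE M21, an annotation of GRCm38. On that scale of CPM per kilobase the order over the 4 libraries began with Cst3, at 478 ± 36.3 (SD, n = 4). Tmem119 at 156 ± 39.0 and Gpr34 at 138 ± 8.40 came next, and their ranges over the libraries overlapped. In the ff pair Tmem119 was below Gpr34 (127 and 120 against 133 and 146). In the ko pair it was above (201 and 176 against 144 and 129). Sparc followed at 111 ± 12.4, and its highest value (123) was above the lowest of Tmem119 (120). Siglech at 77.8 ± 5.84 and Selplg at 67.2 ± 12.8 were again not separated by their ranges. At the low end stood Olfml3 at 42.8 ± 7.66, Slc2a5 at 20.5 ± 1.50 and Crybb1 at 12.1 ± 0.745. The place of Olfml3 rests on a listed transcript of 5465 bases, the longest of the set.

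The set as a whole made up 0.169% and 0.187% of all counts in ff, and 0.212% and 0.192% in ko. In bulk RNA fewer cells of a type and less RNA per cell cannot be told apart. Of the 9 genes, 2 rose in the ko libraries, 0 fell and 7 did not pass the threshold (adjusted p at most 0.05, Benjamini-Hochberg over all genes tested). DESeq2 called the same 2 and limma-voom 1 of them, Tmem119, and neither called a member lower. At an unadjusted edgeR p under 0.05 the number was also 2. The share of all genes at that unadjusted p is not given here. Such numbers, for the 9 genes and for the lists below, therefore have no background beside them. Over all genes 1.70% were called by edgeR, 1.19% higher and 0.518% lower. Of the same 15840 genes DESeq2 called 331 higher and 223 lower, and limma-voom 131 higher and 44 lower. The median log2 fold change of the 9 genes was 0.15, against 0.0075 over all genes tested. When the fit corrected for the length and GC content of transcripts, these medians were -0.031 and -0.026, so that the set no longer lay above all genes. In 5 of the 9 both ko libraries lay above both ff libraries and in 0 below. Over all genes 25.8% lay above and 23.8% below in this way. The genes were chosen as a list with earlier results of these data known, so no test over the list is given.

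**Figure D1:**
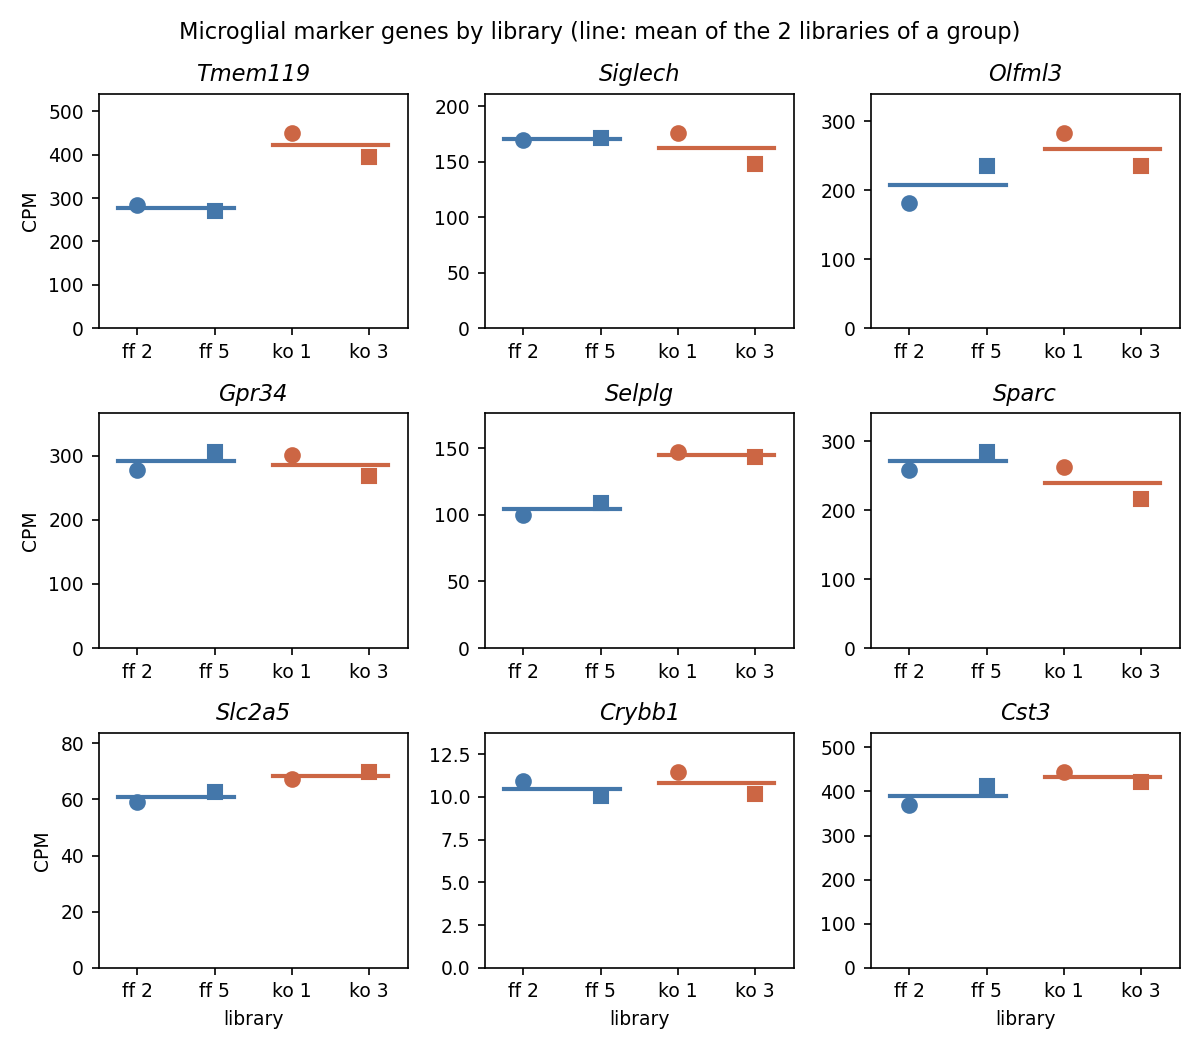
Level of each of the 9 marker genes in CPM (y axis, from 0) in the 4 libraries (x axis), ff in blue and ko in red, with a line at the mean of the 2 libraries of a group. Tmem119, Selplg and, with a smaller difference, Slc2a5 show a gap between the groups that is wider than the gap within either. The groups overlap in Siglech, Gpr34, Sparc and Crybb1.

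Tmem119 encodes a single-pass membrane protein and is among the most used microglial markers in mouse and human brain. The ff pair held 4160 and 4341 counts of it, and the ko pair 8463 and 6261. Scaled to the libraries this was 284 and 269.6 CPM in ff and 451 and 395 CPM in ko. Both ko libraries lay above both ff libraries, and the lower ko value exceeded the higher ff value by more than the ko libraries differed from each other. Tmem119 rose 1.53-fold, or 0.61 ± 0.09 (SE) on the log2 scale, and edgeR's quasi-likelihood test gave an adjusted p of 0.0158. The 95% interval of the fold ran from 1.33 to 1.76. The call held with each library left out, where the log2 fold change lay between 0.50 and 0.70. The lowest of these, 0.50 with an adjusted p of 0.00207, was the value without ko library 1, which carries the Y chromosome. Tmem119 also passed with DESeq2, limma-voom and every other setting tried, with adjusted p no higher than 0.03.

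Selplg encodes PSGL-1, a mucin-like ligand of the selectins that lets white blood cells tether to vessel walls. Its counts were 1466 and 1751 in the ff pair, and 2759 and 2270 in the ko pair. These came to 99.95 and 109 CPM in ff and 147 and 143 CPM in ko. The ko libraries differed by less than counting error, their ratio having an exact 95% counting interval of 0.921 to 1.03. The ff libraries differed by a ratio of 1.09 (1.01 to 1.17), and the groups did not overlap. Selplg rose 1.39-fold, or 0.47 ± 0.08 (SE) on the log2 scale, with an edgeR adjusted p of 0.0329. This call was less stable than that of Tmem119. It held without ko library 1 (0.44, adjusted p = 0.00827) and was lost without ff library 2 (adjusted p = 0.136), with limma-voom (0.0528) and when the fit corrected for the length and GC content of transcripts (0.106).

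The other membrane proteins of the set were not called. Gpr34 encodes a receptor for lysophosphatidylserine, a lipid that cells expose or release when damaged. It had 278 and 305 CPM in ff and 301 and 269 CPM in ko. The groups overlapped, and the log2 fold change was -0.034 ± 0.088 (SE, edgeR adjusted p = 0.890), with a 95% interval of the fold from 0.848 to 1.12. Gpr34 lies on the X chromosome, and its value without ko library 1 was -0.13. Siglech, a sialic acid-binding lectin of microglia and plasmacytoid dendritic cells in mouse, had 169.9 and 171 CPM in ff and 176 and 148 CPM in ko. The ff libraries were equal within counting error, and the ko libraries lay on both sides of them. Its log2 fold change was -0.071 ± 0.096 (SE, edgeR adjusted p = 0.765), and the interval of the fold ran from 0.816 to 1.11. Without ko library 1 the value was -0.21.

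Slc2a5 encodes GLUT5, a transporter for fructose. It had 59.2 and 62.5 CPM in ff and 67.2 and 69.7 CPM in ko, so that the groups did not overlap. The difference was small, with a log2 fold change of 0.17 ± 0.09 (SE), and it did not pass (edgeR adjusted p = 0.374). The interval of the fold was 0.982 to 1.29, and the value without ko library 1 was 0.19.

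Of the secreted proteins, Olfml3, a glycoprotein with an olfactomedin domain, varied the most between the ff libraries. Its level was 181 and 235 CPM in the ff pair, and 284 and 235 CPM in the ko pair. Ff library 5 and ko library 3 were at nearly the same level. Its log2 fold change of 0.32 ± 0.15 (SE) did not pass the edgeR test (adjusted p = 0.368). Leaving out ff library 2 gave 0.14, leaving out ff library 5 gave 0.49, and leaving out ko library 1 gave 0.17. Without a filter on low counts it passed, with an adjusted p of 0.00614. The interval of the fold ran from 0.967 to 1.61.

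Cst3 encodes cystatin C, a secreted inhibitor of cysteine proteases. It had 369 and 411 CPM in ff and 444 and 421 CPM in ko. Both ko values were above both ff values, and the group means lay about as far apart as the ff libraries did from each other. The log2 fold change was 0.15 ± 0.08 (SE, edgeR adjusted p = 0.414), with an interval of the fold from 0.972 to 1.26, and the value without ko library 1 was 0.099. Sparc, a collagen-binding matricellular protein, had 259 and 284 CPM in ff and 263 and 216 CPM in ko. Its groups overlapped, with ko library 3 below the rest. The log2 fold change of -0.18 ± 0.11 (SE) was the lowest of the set and did not pass (edgeR adjusted p = 0.463). It was -0.34 without ko library 1 and -0.045 without ko library 3, and the interval of the fold ran from 0.742 to 1.05.

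Crybb1 had the fewest counts of the set, 160 and 162 in the ff pair and 215 and 161 in the ko pair. This was 10.9 and 10.1 CPM in ff and 11.4 and 10.2 CPM in ko, and the groups overlapped. The log2 fold change was 0.044 ± 0.18 (SE, edgeR adjusted p = 0.935), and -0.057 without ko library 1. Its interval of the fold, 0.769 to 1.38, was wide beside that of Gpr34, and its upper bound lay just under the 1.39-fold of Selplg.

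**Figure D2:**
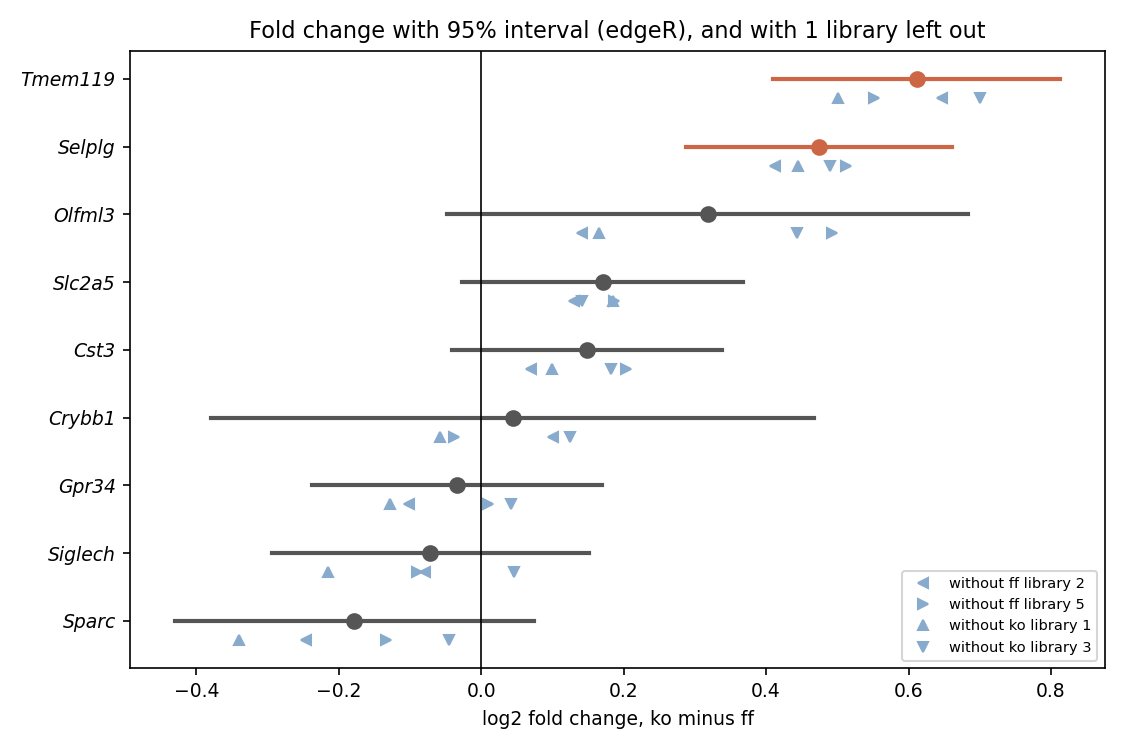
Log2 fold change, ko minus ff (x axis), of the 9 genes (y axis) with its 95% interval from the edgeR fit, in red where the gene was called, and below it in blue the value with each library left out. Tmem119 and Selplg stay above 0 throughout, Olfml3 spreads from 0.14 to 0.49, and Gpr34, Siglech and Crybb1 have values on both sides of 0.

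Ratios of 2 genes within a library do not depend on how libraries are scaled. The pairs below were chosen after the values were seen, and they are given without a test. For each count of Gpr34 there were 1.02 and 0.883 counts of Tmem119 in the ff pair, and 1.50 and 1.47 in the ko pair. Against Siglech the ratios were 1.67 and 1.57 in ff, and 2.55 and 2.66 in ko. Against the purinergic receptor gene P2ry12 they were 0.290 and 0.291 in ff, and 0.458 and 0.448 in ko. In all 3 ratios the ko libraries lay above the ff libraries. Selplg per Gpr34 was 0.359 and 0.356 in ff and 0.488 and 0.532 in ko. Tmem119 per Selplg had overlapping groups, with 2.84 and 2.48 in ff and 3.07 and 2.76 in ko. Within the set, the share of counts held by Tmem119 was 16.6% and 14.5% in ff and 21.0% and 20.7% in ko. Gpr34 had 16.3% and 16.4% in ff and 14.03% and 14.10% in ko, and Sparc 15.1% and 15.3% in ff and 12.3% and 11.3% in ko. A larger share of Tmem119 lowers the shares of the other genes by arithmetic. In CPM the groups overlapped for both Gpr34 and Sparc, so their smaller shares are no sign of a fall.

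**Figure D3:**
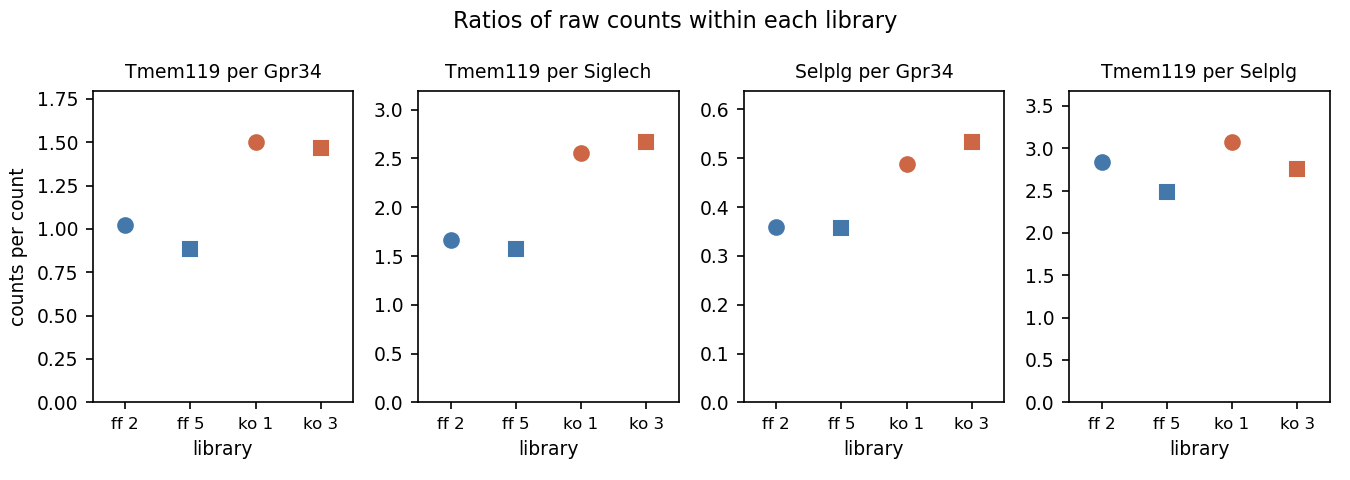
Raw counts of one gene per raw count of another (y axes, from 0) in each of the 4 libraries (x axes), ff in blue and ko in red. Tmem119 per Gpr34, Tmem119 per Siglech and Selplg per Gpr34 are higher in both ko libraries than in both ff libraries, and Tmem119 per Selplg overlaps.

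Tmem119 and Selplg are next to each other on chromosome 5, with 0 protein-coding genes between them in RefSeq (GRCm38.p6, used here for the order of genes only). The gene on the other side of Tmem119 is Iscu, a scaffold for building iron-sulphur clusters. Iscu was at 73.4 and 66.5 CPM in the ff pair, and at 133 and 109 CPM in the ko pair. It rose by 0.79 ± 0.11 (SE) on the log2 scale, with an edgeR adjusted p of 0.0174. Its call held with each library left out, at log2 fold changes between 0.63 and 0.93. Coro1c, an actin-binding coronin gene beyond Selplg, had 255 and 231 CPM in ff and 219 and 227 CPM in ko, and a log2 fold change of -0.12 ± 0.08 (SE, edgeR adjusted p = 0.485). Sart3, a splicing factor gene beyond Iscu and named after its values were seen, had a log2 fold change of 0.61 ± 0.17 (SE) that did not pass (edgeR adjusted p = 0.151). Thus 3 adjacent genes were called higher, and the genes at the ends of this run were not called. No exon of the 9 marker genes overlapped an exon of another gene in GENCODE M21. The strand setting of the counting is not given in the sources used here.

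**Figure D4:**
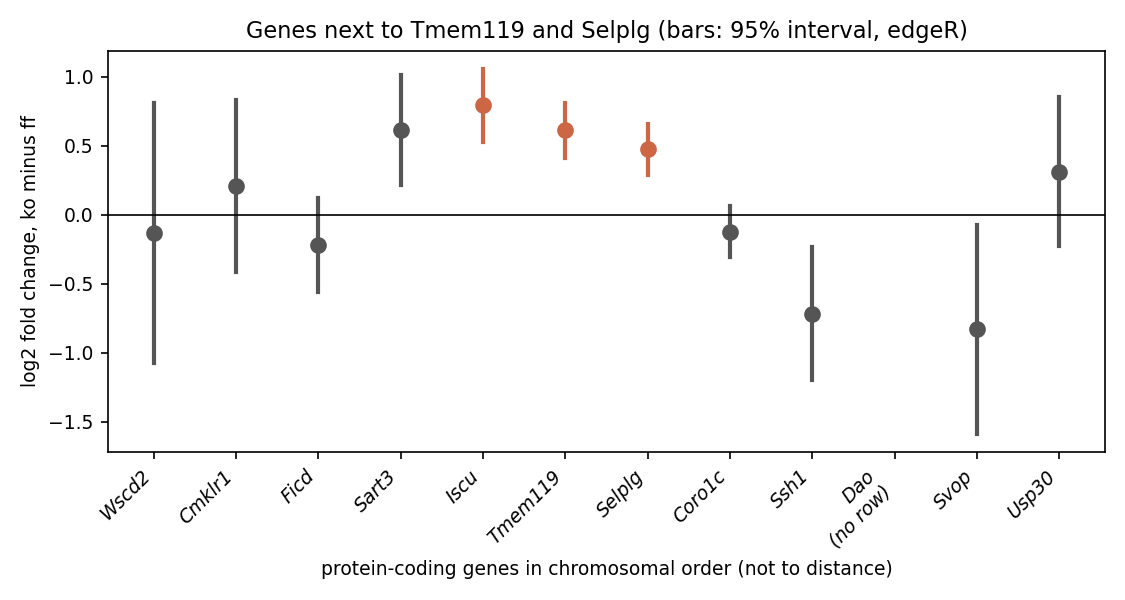
Log2 fold change, ko minus ff, with its 95% interval from the edgeR fit (y axis) for protein-coding genes in their order along chromosome 5 around Tmem119 and Selplg (x axis, not to distance), in red where called. Iscu, Tmem119 and Selplg stand together at 0.79, 0.61 and 0.47, and Coro1c is at -0.12.

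The tested genes next to or overlapping the other members were Luzp2, Tubgcp5, Syt6, Hipk1, Cask, Gpr82, Atox1, Gpr157, Cryba4, Mn1 and Tpst2. Of these edgeR called Mn1 alone, and over all genes it called 1.70%. Gpr34 lies within the span of Cask, a scaffold protein gene, whose log2 fold change was -0.61 ± 0.18 (SE, edgeR adjusted p = 0.198). Gpr82, an orphan receptor gene beside Gpr34, was not called, with 92 and 91 counts in the ff pair and 89 and 59 in the ko pair (edgeR adjusted p = 0.392). Cryba4, a crystallin gene whose span overlaps that of Crybb1 in RefSeq, had 17.4 and 18.9 CPM in ff and 28.8 and 25.5 CPM in ko. Its groups did not overlap, and its log2 fold change of 0.58 ± 0.13 (SE) missed the threshold (edgeR adjusted p = 0.0925). Mn1, a transcriptional coregulator gene on the far side of Crybb1, was lower in ko, at 31.2 ± 3.30 CPM against 49.5 ± 1.29 (SD, n = 2 each; edgeR adjusted p = 0.0329). That call was lost without ff library 2 (adjusted p = 0.0944) and with limma-voom (0.0528).

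Genes that work with the marker genes were read from lists written with earlier results known. Of the 8 genes listed for lysophosphatidylserine, the ligand of Gpr34, 5 were tested and 1 was called. This was Abhd12, a lipase that breaks that lipid down, which rose from 560 ± 10.3 to 786 ± 80.7 CPM (SD, n = 2 each). Its log2 fold change was 0.49 ± 0.09 (SE) with an edgeR adjusted p of 0.0392. The call was lost without ff library 2 (0.0923), without ko library 1 (0.0664), with limma-voom (0.0580) and with the length and GC correction (0.10). Abhd16a, an enzyme that makes lysophosphatidylserine, had 65.3 ± 0.203 CPM in ff and 69.1 ± 2.17 in ko and was not called.

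Of the 13 selectin and Selplg-modifying genes, 11 were tested and 0 were called by edgeR, DESeq2 or limma-voom, with 1 at an unadjusted p under 0.05. B4galt1, a galactosyltransferase, had a mean of 327 ± 35.6 CPM for ff and 284 ± 47.5 CPM for ko (SD, n = 2 each). Tpst2, which sulphates tyrosines of PSGL-1, had 229 ± 18.0 and 243 ± 8.01 CPM. Of 7 tested relatives of Siglech in the Siglec family edgeR and limma-voom called 0, DESeq2 called 1 (Siglec1), and 1 had an unadjusted p under 0.05. Cd33 had 163 ± 0.199 CPM in ff and 158 ± 9.80 in ko, and Siglec1, also a marker of border-associated macrophages, had 58.3 ± 4.02 and 122 ± 40.5 CPM (log2 fold change 1.06, edgeR adjusted p = 0.190). The adaptor Tyrobp, through which Siglech signals in mouse, had 84.7 ± 5.68 and 86.3 ± 6.27 CPM. None of the 3 tested genes of that adaptor chain was called by edgeR, DESeq2 or limma-voom, and 0 had an unadjusted p under 0.05.

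Among 11 proteases that cystatins inhibit, papain-like cathepsins and legumain (Lgmn), 1 rose and 0 fell. This was Ctss, from 635 ± 0.819 to 900.2 ± 10.5 CPM (SD, n = 2 each, edgeR adjusted p = 0.0123), a call lost with the length and GC correction (0.0562). Ctsb, cathepsin B, had 9637 ± 195 CPM in ff and 9420 ± 139 in ko and was not called. Of 14 cystatins 2 passed the filter and 0 were called by edgeR, DESeq2 or limma-voom (1 at an unadjusted p under 0.05), with Cstb at 101 ± 0.460 and 123 ± 1.42 CPM. Of 3 crystallins tested, Crybg1 rose from 3.94 ± 0.121 to 10.3 ± 1.14 CPM (SD, n = 2 each, edgeR adjusted p = 0.0247, and 0.0654 without ff library 2). None of the 9 tested hexose transporters, 5 fructose enzymes, 7 Sparc relatives, 6 olfactomedin genes and 17 genes of the TGF-beta pathway passed the edgeR threshold. Their median log2 fold changes were 0.065, 0.041, 0.18, 0.26 and 0.043 in that order. The hexose transporter median ran from -0.044 without ko library 3 to 0.23 without ko library 1, and that of the Sparc family was below 0 without ff library 2 (-0.046), without ko library 1 (-0.0038) and without ko library 3 (-0.074). At an unadjusted p under 0.05 the numbers were 1, 1, 1, 0 and 2. DESeq2 called 1 of these genes, Fstl1 of the Sparc family, and limma-voom called 0.

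Other microglial genes give the setting for these values. Of 21 tested genes of the purinergic, chemokine receptor, lineage and other core groups, 0 rose and 1 fell by edgeR and by limma-voom. DESeq2 called 0 higher and 2 lower, and 6 had an unadjusted edgeR p under 0.05. Their median log2 fold change was 0.015. It was -0.051 without ff library 2, -0.014 without ff library 5, -0.029 without ko library 1 and 0.043 without ko library 3. The gene that fell was Cx3cr1, the fractalkine receptor gene, at 1198 ± 107 CPM in ko against 2265 ± 39.0 in ff (SD, n = 2 each; edgeR adjusted p = 0.00108). Counts of Tmem119 per count of Cx3cr1 were 0.127 and 0.118 in the ff pair, and 0.354 and 0.352 in the ko pair. With Tmem119 called higher and Cx3cr1 lower in the same libraries, this ratio had to differ and is no further result. Without ko library 1 the log2 fold change of Cx3cr1 was -1.02. In 6 of the 21 genes both ko libraries lay above both ff libraries, and in 6 below. Csf1r and C1qa had the highest CPM of the list. Their log2 fold changes were -0.18 (edgeR adjusted p = 0.227) and 0.27 (0.0972). Itgam, the other gene that DESeq2 called lower, was at -0.36 (edgeR adjusted p = 0.0569). P2ry12 and Sall1, used to tell microglia from other macrophages, were present in all libraries. Itgam, P2ry12 and Sall1 were named after their values were seen. P2ry12 had 952 ± 34.6 CPM in ff and 933 ± 71.6 in ko, and Sall1, a transcription factor gene, had 63.4 ± 5.80 and 59.4 ± 10.5 CPM (SD, n = 2 each). Fcrls, another listed marker, was not analysed here.

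Markers of other cells were also present. The 16 markers of border-associated macrophages, cells of the meninges and vessel surroundings, summed to 32225 and 27451 CPM in the ff pair, and to 21269 and 24207 CPM in the ko pair. Of these 16, 0 rose and 1 fell by edgeR. This was Cd163, a scavenger receptor gene, with a mean of 456 CPM for ko and 831 CPM for ff. DESeq2 called 1 higher and 6 lower, against 331 higher and 223 lower among all 15840 genes. An unadjusted edgeR p under 0.05 was found for 10 of the 16. In 11 both ko libraries lay below both ff libraries and in 1 above, against 23.8% and 25.8% of all genes. Lymphocyte markers, which matter for Selplg, summed to 113 and 103 CPM in ff and 135 and 141 CPM in ko. Most of each sum was Cd79b, with 79.0 and 77.6 CPM in ff and 78.4 and 87.1 CPM in ko (log2 fold change 0.079). In 11 of 13 tested genes both ko libraries lay above both ff libraries and in 0 below, against 25.8% and 23.8% of all genes. By edgeR 1 of 13 was higher. The gene was Gzma, a granzyme gene, with 2 and 3 counts in the ff pair and 44 and 46 in the ko pair. It missed the threshold with limma-voom (adjusted p = 0.0503), and DESeq2 gave no adjusted p for 6 genes of the list, Gzma among them. The lymphocyte median log2 fold change was 0.86, with 8 of 13 at an unadjusted p under 0.05. Monocyte and neutrophil markers summed to 159 and 162 CPM in ff and 239.9 and 199 CPM in ko, with 1 of 8 tested genes higher by edgeR. That gene was Ccr2, a chemokine receptor gene, also called by DESeq2 but not by limma-voom (adjusted p = 0.0619). The median of that list was 0.43, with 3 of 8 at an unadjusted p under 0.05. In 4 of the 8 both ko libraries lay above both ff libraries and in 0 below. Mural and fibroblast markers, which matter for Sparc, summed to 379 and 562 CPM in ff and 863 and 636 CPM in ko, with 0 of 14 called by edgeR and a median log2 fold change of 0.75, which was 0.40 without ff library 2 or ko library 1 and 1.07 without ff library 5. Endothelial markers had 0 of 13 called and a median of 0.45, which turned to -0.094 without ko library 3. Progenitor and astrocyte markers had 0 of 15 called and a median of -0.020, which ran from -0.19 without ko library 3 to 0.20 without ff library 5. Neuron markers had 1 of 13 lower, Sox11, and a median of -0.27. In 6 of these 13 both ko libraries lay below both ff libraries and in 0 above, and all 13 had a log2 fold change below 0. Such counts above and below were 7 and 2 of 14 mural and fibroblast genes. They were 4 and 1 of 13 endothelial genes, and 2 and 0 of 15 progenitor and astrocyte genes. At an unadjusted p under 0.05 there were 4 mural and fibroblast, 2 endothelial, 2 progenitor and astrocyte and 3 neuron genes. Of the first 3 of these lists DESeq2 called 1 gene, Vim, and limma-voom 0. None of the listed genes with a row was at 0 in all 4 libraries. The part of these cells in the levels of Selplg, Sparc and Cst3 was not tested.

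The genes whose pattern over the 4 libraries was most like that of a member were found among 3888 other genes of at least 50 CPM. Likeness was the root mean square difference of log2 CPM after centring each gene on its mean. For Tmem119 the closest were Trim30d (0.011), Polr2m (0.024) and Rbm42 (0.025), and 36 genes lay within 0.1. For Selplg they were Aif1, which encodes the macrophage protein IBA1 (0.011), Icam1, an adhesion ligand of integrins (0.016), and Vim, which encodes vimentin (0.024), and 127 genes lay within 0.1. For Gpr34, with little difference between groups, 944 genes lay within 0.1, led by Pkm (0.019). For Slc2a5 the number was 1317. With 4 libraries such likeness is a description of levels.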

How the data were processed

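The authors deposited 1 table of raw counts per gene with a column for each of the 4 libraries, and per the labels' protocols RNA was extracted with TRIzol and selected with oligo(dT) beads. Per the series' design text, paired reads of 150 bases were filtered and aligned with HISAT2 2.0.5, and per the submitters' processing notes the build was GRCm39. For the counting tool and the annotation the sources used here name none. Of 26054 lines, 3 without counts were left out. Genes were filtered with filterByExpr, scaled by TMM and compared between ko and ff with edgeR 4.0.16 (glmQLFit with the robust option, R 4.3.3). The members and gene lists were chosen with earlier results of these data known. Named genes are the 9 members, the 3 genes most like each, up to 3 called and the 2 genes of highest CPM of each list, and the neighbours of each member; any other is said to be named after its values were seen. For some lists only part of these are printed. Alternatives were DESeq2 1.42.0, limma-voom (limma 3.58.1), other scalings and filters, each library left out, and a correction for the length and GC content of transcripts, for which 92.2% of tested genes had values. The edgeR step was first checked on simulated counts. An exact permutation test (two-sided) of 2 against 2 cannot go below 0.333, so the edgeR test leans on spread shared across genes. Counting intervals cover counting error only.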

Additional observations from a re-analysis of the deposited data

How the results depend on the processing

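No paired analysis was possible because the ko and ff libraries share no replicate numbers. Of 99 re-tests of the 9 genes under 11 alternatives, 88 kept their direction and side of the threshold. The number of genes called, 270, became 1386 without a filter on low counts, 175 by limma-voom and 554 by DESeq2, and it ranged from 198 without ff library 2 to 1213 without ko library 3, with 450 without ff library 5 and 996 without ko library 1. Of the 2 marker genes called, 1 remained, Tmem119, with limma-voom and with the length and GC correction, and leaving out a library gave 1 (without ff library 2) or 2. The median log2 fold change of the 9 genes was -0.031 with that correction, and that of all genes -0.026. Signs turned in genes that were never called: over left-out libraries Siglech ran from -0.21 to 0.046, Gpr34 from -0.13 to 0.041 and Crybb1 from -0.057 to 0.12, and with the correction Crybb1 was at -0.16 and Cst3 at -0.031. The causes were not tested. Crybb1 had the fewest counts of the 9 genes and the largest SE of its log2 fold change (0.18).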

Other observations

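Among 226 listed genes with a row, marker genes included, 6 were at least 3 times as high in ko library 1, the library with Y chromosome transcripts, as in each other library, with at least 30 counts there. This limit was set after the values were seen. No such count was made for the other libraries or over all genes, so ko library 1 cannot be ranked against them. Tpst1, which like Tpst2 sulphates tyrosines of proteins such as PSGL-1, had 97 and 87 counts in the ff pair, and 801 (ko library 1) and 210 in the ko pair. C1qc, a chain of complement C1q, was at 5325 and 4946 counts in the ff pair, and at 44347 (ko library 1) and 8192 in the ko pair. For its partner C1qa the ff pair held 63021 and 68210 counts, and the ko pair 98232 and 80804. Spi1, which encodes PU.1, had 1342 and 1276 counts in the ff pair, and 8651 (ko library 1) and 1818 in the ko pair. Hes1, a Notch target gene, had 28 and 40 counts in the ff pair, and 199 (ko library 1) and 30 in the ko pair. None of these 4 was called by the edgeR test. The other two, under the filter on low counts, were the neutrophil granule genes Mpo and Elane, with 156 and 38 counts in ko library 1 and at most 4 in any other library.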
